A study of Rattus norvegicus with 40 samples.

Results

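The data compared microglia from the cervical spinal cord of female rats by what their mothers breathed in pregnancy. Of the 40 libraries of the series, the 10 libraries labelled as female cervical cord were taken, 5 from offspring of dams under intermittent hypoxia and 5 from offspring of dams under intermittent normoxia. The animals were 8-week-old Sprague Dawley rats. From gestational day 10 until day 21, the air of hypoxia dams alternated between 10.5% and 21% oxygen in 15 cycles per hour, 8 hours daily, while normoxia dams went through the same cycles at 21% oxygen throughout. Pups of both groups were born and raised in ordinary housing. Cells came from cord segments C3 to C6 and were isolated on magnetic beads with an antibody to CD11b, an integrin chain carried by microglia and also by other myeloid cells. The series design takes 1 female from each of 5 litters per exposure, so each library is a separate animal. The other 30 libraries held male cord and the medulla of both sexes.

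Microglia are the resident macrophages of the brain and spinal cord. They settle in the nervous system before birth and renew themselves there, so an exposure of the fetus can reach cells that are still present in the adult. The cervical segments sampled hold the motor neurons of the diaphragm, and intermittent hypoxia of the mother is used as a model of sleep apnoea in pregnancy.

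Genes can be given here by Ensembl ID only. The deposited table pairs no ID with a symbol, and 0 of its 32883 IDs could be matched to the reference gene table used here. Neither the microglial label nor other cell types in the isolates could therefore be checked against marker genes, and no gene is called microglial, glial or stress-related below. In bulk RNA, fewer cells of a type and less RNA per cell cannot be told apart, and this holds for every difference that follows. Values in CPM (reads of a gene scaled to its library's total, after that total was rescaled by the TMM factor of edgeR) are not corrected for gene length. A gene said to take more reads than another need therefore not have more transcripts.

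The female cord differed widely by gestational exposure. Of 13593 genes tested, 4458 (32.8%) were called at an adjusted p under 0.05 with the quasi-likelihood test of edgeR, 2468 higher (18.2%) and 1990 lower (14.6%) after hypoxia. The groups' CPM values did not overlap for 2915 genes (21.4%), with all 5 hypoxia libraries above all 5 normoxia libraries for 1629 (12%) and below them for 1286 (9.46%). Both conditions were met by 2740 genes (20.2%). The median log2 fold change over all tested genes was -0.01, with calls on both sides of it. With each of the 10 libraries left out in turn the count of calls ran from 3639, without hypoxia replicate 2, to 4583, without hypoxia replicate 1. In all, 3031 genes were called in the same direction in each of those 10 fits, 1745 higher and 1286 lower, and 2370 kept their call and direction in all 20 alternative fits.

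Rises were larger than falls except among genes with the fewest reads. Over all levels, called genes rose by a median of 1.66-fold and fell by a median of 1.44-fold. Under a mean log2 CPM of 3 these medians were 2.46-fold and 2.56-fold. Among the 5438 genes with a mean log2 CPM of at least 5 in the 10 libraries, 211 rose and 17 fell over 2-fold, and 8 rose and 0 fell over 4-fold. Below that level 524 higher and 335 lower genes were past 2-fold. From 3 to 5 these were 269 higher and 47 lower, and under 3 they were 255 higher and 288 lower. These are counts of fitted fold changes and were not tested against each other.

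**Figure D1:**
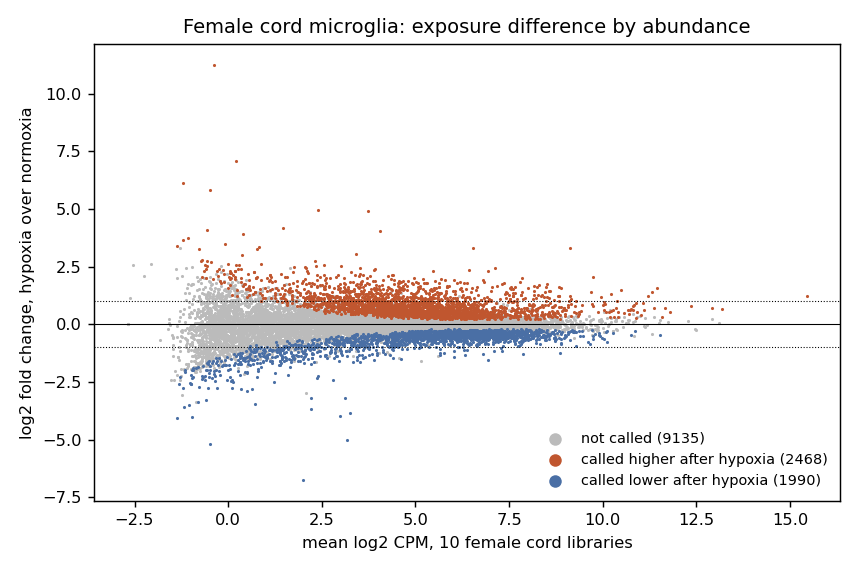
Each point is a tested gene, with its mean log2 CPM over the 10 female cord libraries on the x axis and its log2 fold change (hypoxia over normoxia) on the y axis, coloured by call, with dotted lines at 2-fold. Past a mean log2 CPM of 5, 211 called genes lie above the upper dotted line and 17 below the lower one.

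The direction of the calls changed with the reads a gene took. Under a mean log2 CPM of 3, 349 genes were called higher and 367 lower of 4435. From 3 to 5 the higher calls were the more frequent, with 997 (26.8%) against 380 (10.2%) of 3720 genes. From 5 to 7 the calls were about even, at 804 higher and 835 lower of 3868. From 7 to 9 the lower calls were the more frequent, with 253 (18.7%) against 373 (27.6%) of 1350 genes. At 9 and above they turned again, with 65 (29.5%) higher and 35 (15.9%) lower of 220 genes. Some of these counts rested on single libraries. Without hypoxia replicate 2 the higher calls under 3 numbered 209, and without hypoxia replicate 3 the lower calls there numbered 238. At 9 and above the lower calls numbered 22 without hypoxia replicate 2 and 23 without normoxia replicate 5. With all 40 libraries sharing the spread, lower calls from the lowest class to the highest numbered 206, 219, 493, 238 and 22, and higher calls 252, 788, 592, 185 and 47.

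**Figure D2:**
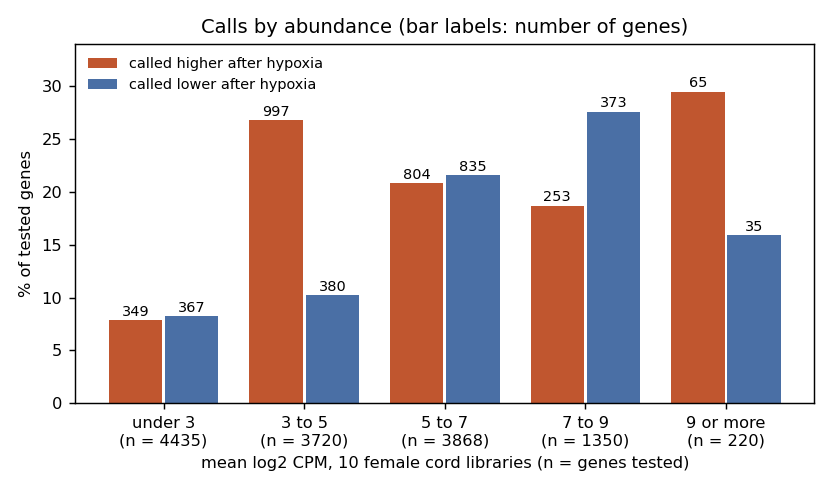
Bars show the percentage of tested genes called higher (orange) and lower (blue) after hypoxia in 5 classes of mean log2 CPM over the 10 female cord libraries, and the figure on each bar is the number of genes. Higher calls exceed lower calls from 3 to 5 (997 against 380) and from 9 upwards (65 against 35), while lower calls are more frequent from 7 to 9 (373 against 253).

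The genes that took the most reads mostly rose or did not pass the test. Of the 100 genes with the highest mean log2 CPM, 42 were called higher and 10 lower, beside 18.2% and 14.6% over all tested genes. The 10 lower calls became 5 without hypoxia replicate 2 or without hypoxia replicate 3, and 6 without normoxia replicate 5. With all 40 libraries sharing the spread, 27 of the 100 were called higher and 6 lower. Of the first 20 genes, 10 were called higher and 1 lower. The lower call, at the fourteenth gene by rank (log2 fold change -0.45), was lost without hypoxia replicate 2 (edgeR adjusted p = 0.0573) or 3 (0.0601). The tenth gene, at a log2 fold change of 0.52, lost its call in 6 of the 10 fits that left out a library, without normoxia replicate 1, 3 or 5 and without hypoxia replicate 1, 3 or 4, at edgeR adjusted p values of up to 0.0828. Over all alternatives that tested them, the tenth gene was called in 11 of 20, the thirteenth in 18 of 20 and the eighth in 18 of 19. The other higher calls among the first 20 were kept in every fit.

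The gene with the most reads of all took 3.39%, 3.71%, 2.88%, 3.09% and 2.65% of the reads in normoxia replicates 1 to 5. In hypoxia replicates 1 to 5 it took 4.67%, 11.0%, 7.12%, 5.33% and 4.56%. The groups did not overlap, and hypoxia replicate 2 stood highest. The mean level was 30200 ± 4041 CPM (SD, n = 5) after normoxia and 71192 ± 34555 CPM after hypoxia, 2.36-fold higher (log2 fold change 1.24, SE 0.26, edgeR adjusted p = 0.00126). Male cord libraries spanned 36301 to 65971 CPM after normoxia and 32428 to 52363 CPM after hypoxia, and female hypoxia replicate 2, at 129035 CPM, was the highest of all cord libraries. The log2 fold change after hypoxia was higher in the female than in the male cord by 1.61 (SE 0.37, edgeR adjusted p = 0.00403).

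Among the next genes by rank, the second, the fourth, the seventeenth and the twentieth rose as well. The second rose 1.57-fold, from 7570 ± 526 CPM to 11897 ± 2778 CPM, and the fourth 1.65-fold, from 6112 ± 1289 CPM to 10111 ± 1475 CPM (n = 5 per group). The seventeenth rose 2.96-fold, from 1732 ± 350 CPM to 5123 ± 3257 CPM, and the twentieth 2.61-fold, from 1660 ± 261 CPM to 4326 ± 2004 CPM. In all 4 the groups did not overlap, and the edgeR adjusted p values were 0.00144, 0.00139, 0.000691 and 0.00153. The third gene, by contrast, held 7780 to 9455 CPM after normoxia and 8254 to 9895 CPM after hypoxia, with overlapping groups and an edgeR adjusted p of 0.664.

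Reads were concentrated in fewer genes after hypoxia. The 10 genes with the most reads took 8.75 ± 0.506% of the reads after normoxia and 12.8 ± 2.47% after hypoxia (n = 5 per group). Of that difference of 4.06 percentage points between the means, 3.40 lay in the gene with the most reads, already described. The fewest genes that together held 50% of the reads numbered 727 to 774 in normoxia libraries and 431 to 644 in hypoxia libraries. Both measures parted the groups without overlap (exact permutation test, two-sided, p = 0.00794, the smallest that 5 against 5 allows, and 0.00992 after Benjamini-Hochberg adjustment over 5 measures). Detection did not differ beyond the spread. Thinned to the same total of 8818241 reads, normoxia libraries had a read in 14984 to 16731 genes and hypoxia libraries in 15994 to 16401 (exact permutation p = 0.429, adjusted p = 0.429). Without normoxia replicate 1 that adjusted p was 0.0317, at 487 more genes after hypoxia.

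Depth moved with exposure in these libraries. Totals were 8818241 to 13327037 reads after normoxia and 13570283 to 20650051 after hypoxia, again without overlap (exact permutation p = 0.00794, adjusted p = 0.00992). With the counts of the 20 cord libraries thinned to one total, 4269 genes were called, 4092 of them shared with the 4458 in the same direction. The labels name no sequencing batch, so anything else that differed between the groups' preparations cannot be told apart from the exposure.

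**Figure D3:**
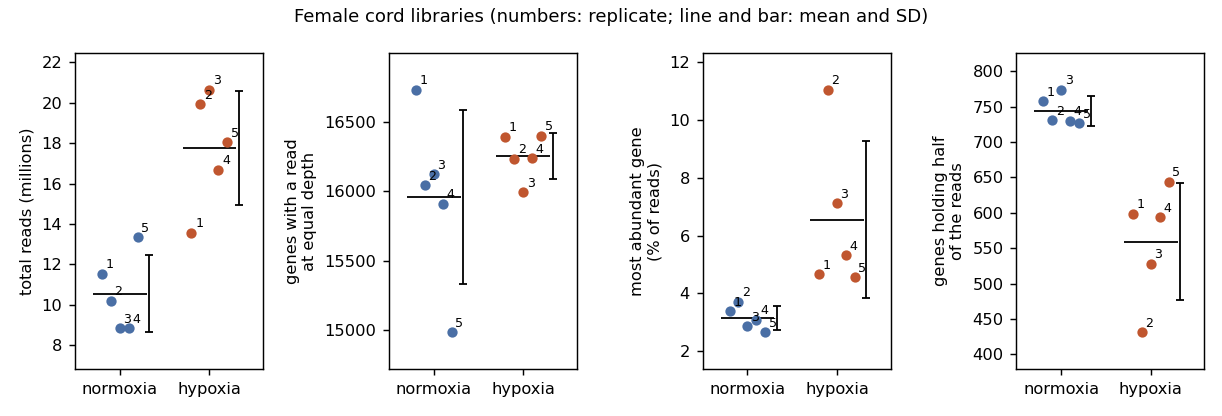
Each point is a female cord library (blue normoxia, orange hypoxia, numbered by replicate), with lines at group means and bars of 1 SD, for total reads, genes with a read after thinning to 8818241 reads, the share of reads in the gene with the most reads, and the number of genes holding 50% of the reads. The groups do not overlap in 3 of the 4 panels, and hypoxia replicate 2 has the highest share (11.0%) and the fewest genes (431).

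The hypoxia animals differed in how far they stood from normoxia. On the first principal component of the 10 libraries (35.9% of the variance in log2 CPM), normoxia libraries lay between -55.2 and -20.6. Hypoxia replicate 1 lay nearest to them at 9.1, replicates 3 to 5 at 30.9 to 38.9, and replicate 2 farthest at 67.1. Pairwise Pearson correlations across genes had a median of 0.955 within normoxia, 0.97 within hypoxia and 0.944 between the groups, and genes are not independent replicates. At equal depth these medians were 0.958, 0.969 and 0.945. Hypoxia replicate 1 correlated with the normoxia libraries at 0.947 to 0.96, and replicate 2 at 0.903 to 0.923.

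The 211 genes that rose over 2-fold at a mean log2 CPM of at least 5 followed that order almost as a block. Replicate 2 held the highest hypoxia value in 195 of them, and replicate 1 the lowest in 184. Their summed level was 6.42%, 6.66%, 4.95%, 5.62% and 4.89% of scaled reads in normoxia replicates 1 to 5, and 9.37%, 24.8%, 15.5%, 10.9% and 10.4% in hypoxia replicates 1 to 5. The gene with the most reads is part of this sum. Without hypoxia replicate 2 the median rise of the 211 was 2.13-fold in place of 2.42-fold, 131 stayed over 2-fold, and 209 were still called higher. These genes were chosen by this contrast, so the values describe it and are no further evidence for it.

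In other libraries the 211 genes leaned the opposite way. In the male cord, 192 of the 211 had a lower fitted level after hypoxia, beside 6729 of all 13593 tested genes. Their median log2 fold change was -0.24, beside 0.003 over all tested genes. No gene passed there with edgeR (0 of 13593, and 841 at an unadjusted p under 0.05), 0 with limma voom and 1 with DESeq2, so these are directions below the threshold. Their summed level was 7.34% to 12.6% in male normoxia and 6.28% to 10.5% in male hypoxia libraries. These ranges overlapped each other, and both lay above the 4.89% to 6.66% of female normoxia except for male hypoxia replicates 1 and 4, at 6.28% and 6.55%. In the female medulla, from the same animals, 187 of the 211 had a lower fitted level after hypoxia, beside 8044 of all 14832 tested genes. Their median was -0.49 beside -0.04 over all tested genes, of which edgeR called 3.46%. As the 211 moved almost as a block in the female cord, these counts are not 211 separate results. The 17 genes that fell over 2-fold leaned neither way there, with 10 of 17 lower in the male cord (median -0.01) and 7 of 17 lower in the female medulla (median 0.08). In the female cord the summed level of these 17 was 0.271% to 0.369% after normoxia and 0.107% to 0.16% after hypoxia.

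The interaction of sex and exposure was called in 23.2% of genes tested in the cord, and that of region and exposure in females in 20.8%. The second count moved with the fit, and the model over all 40 libraries had no term for the animal. It was 3078 of 14832 genes with all 40 libraries in the model, 1083 of 14039 with only the 20 female libraries, and 1654 with each animal as a block in those 20. The first was 3155 of 13593 genes in the cord and 1562 of 14832 when all 40 libraries shared the spread.

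Of the 1590 genes that were called, did not overlap and had a mean log2 CPM of at least 5, the 2 with the highest and the 2 with the lowest fold change are given by ID. They were chosen by their female cord values, so their fold changes and p values there are no further evidence. Their differences from the male cord and the medulla contain those same values and share that choice. ENSRNOG00000016220 had the largest rise. It held 38.9, 38.6, 32.4, 35.9 and 17.5 CPM in normoxia replicates 1 to 5, and 67.1, 488, 391, 304 and 352 CPM in hypoxia replicates 1 to 5. Hypoxia replicate 1 thus lay closer to the normoxia libraries than to the other 4 hypoxia libraries, and the groups did not overlap. The mean rose from 32.7 ± 8.85 to 321 ± 157 CPM (log2 fold change 3.30, SE 0.57, edgeR adjusted p = 0.00024).

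In the male cord and the female medulla, ENSRNOG00000016220 had a high and a low range within single groups. The male medulla had no low library, with 221 to 300 CPM after normoxia and 204 to 390 CPM after hypoxia. Male normoxia cord libraries held 212 to 294 CPM except replicate 4 at 46.8 CPM, and male hypoxia cord libraries 175 to 226 CPM except replicates 1 and 2 at 38.3 and 30.7 CPM. In the medulla of the normoxia females, whose cord libraries were all under 39 CPM, it held 365, 283, 213, 27.0 and 159 CPM. In the medulla of the hypoxia females it held 24.3, 279, 67.3, 68.9 and 303 CPM. Normoxia replicate 4 (35.9 CPM in the cord and 27.0 CPM in the medulla) and hypoxia replicate 1 (67.1 and 24.3 CPM) were low in both regions, while normoxia replicate 1 had 38.9 CPM in the cord and 365 CPM in the medulla. The fitted log2 fold change after hypoxia was -0.67 in the male cord (edgeR adjusted p = 0.811) and -0.49 in the female medulla (0.66), so neither passed. That of the female cord was higher than the male one by 3.97 (SE 0.76, edgeR adjusted p = 0.00149) and higher than that of the medulla by 3.79 (SE 0.84, edgeR adjusted p = 0.00274).

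ENSRNOG00000032825 rose as the second of the 2. It held 40.7, 78.0, 40.3, 27.0 and 26.8 CPM in normoxia replicates 1 to 5, and 101, 497, 225, 142 and 137 CPM in hypoxia replicates 1 to 5. Replicate 2 was the highest of its group under both exposures. Means were 42.6 ± 21.0 and 220 ± 161 CPM (log2 fold change 2.37, SE 0.43, edgeR adjusted p = 0.000398).

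In the male cord ENSRNOG00000032825 spanned 63.7 to 176 CPM after normoxia and 38.2 to 137 CPM after hypoxia, with replicate 2 again the highest of each group. In the female medulla it spanned 53.8 to 197 CPM after normoxia and 11.9 to 147 CPM after hypoxia. The fitted log2 fold changes there were -0.42 and -0.91 and did not pass (edgeR adjusted p = 0.845 and 0.279). That of the female cord was higher than the male one by 2.80 (SE 0.59, edgeR adjusted p = 0.00268) and higher than that of the medulla by 3.28 (SE 0.69, edgeR adjusted p = 0.00217).

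ENSRNOG00000057092 had the largest fall. It held 246, 309, 144, 152 and 244 CPM in normoxia replicates 1 to 5, and 96.8, 96.1, 66.8, 37.0 and 78.9 CPM in hypoxia replicates 1 to 5. The lowest normoxia library, at 144 CPM, lay above the highest hypoxia library. Means were 219 ± 69.9 and 75.1 ± 24.7 CPM (log2 fold change -1.54, SE 0.29, edgeR adjusted p = 0.00051).

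Whether this fall of ENSRNOG00000057092 differed from other libraries depended on the fit and on single libraries. Male cord libraries held 143 to 329 CPM after normoxia and 91.2 to 247 CPM after hypoxia. The female minus male difference was -1.13 (log2, SE 0.40, edgeR adjusted p = 0.0465). It lost its call in 13 of 20 fits that left out 1 cord library, at adjusted p values of 0.0601 to 0.096. The 13 left out male normoxia replicate 1, 2, 3 or 4, male hypoxia replicate 2, 3 or 5, female normoxia replicate 1, 2 or 5, or female hypoxia replicate 3, 4 or 5. Female medulla libraries held 50.4 to 137 CPM after normoxia and 44.6 to 129 CPM after hypoxia. The cord minus medulla difference was -1.47 (SE 0.57, edgeR adjusted p = 0.0595). With each animal as a block it was -1.50 at an edgeR adjusted p of 0.0196. Among the fits without the block that left out 1 library, it passed in 3. These left out normoxia medulla replicate 5 (0.0328), hypoxia medulla replicate 3 (0.0354) or hypoxia medulla replicate 5 (0.0317).

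ENSRNOG00000012002 had the second largest fall. It held 208, 84.3, 50.2, 97.7 and 115 CPM in normoxia replicates 1 to 5, and 49.9, 39.9, 40.9, 38.6 and 40.1 CPM in hypoxia replicates 1 to 5. The groups were apart by less than 1 CPM, between normoxia replicate 3 and hypoxia replicate 1, and the hypoxia libraries were much the more alike. Means were 111 ± 59.3 and 41.9 ± 4.56 CPM (log2 fold change -1.41, SE 0.25, edgeR adjusted p = 0.000363).

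Male cord libraries held 53.9 to 99.4 CPM of ENSRNOG00000012002 after normoxia and 73.8 to 105 CPM after hypoxia, and the female minus male difference was -1.57 (log2, SE 0.36, edgeR adjusted p = 0.00391). The 5 female hypoxia cord libraries lay below all 10 male cord libraries. Female medulla libraries held 48.6 to 146 CPM after normoxia and 22.6 to 125 CPM after hypoxia. The cord minus medulla difference was -1.03 (SE 0.44, edgeR adjusted p = 0.0917). Among the fits that left out 1 library, it passed without hypoxia medulla replicate 3 (edgeR adjusted p = 0.0141) and without normoxia cord replicate 3 (0.0432). Hypoxia medulla replicate 3, at 22.6 CPM, was the lowest of its group and rests on 116 reads.

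**Figure D4:**
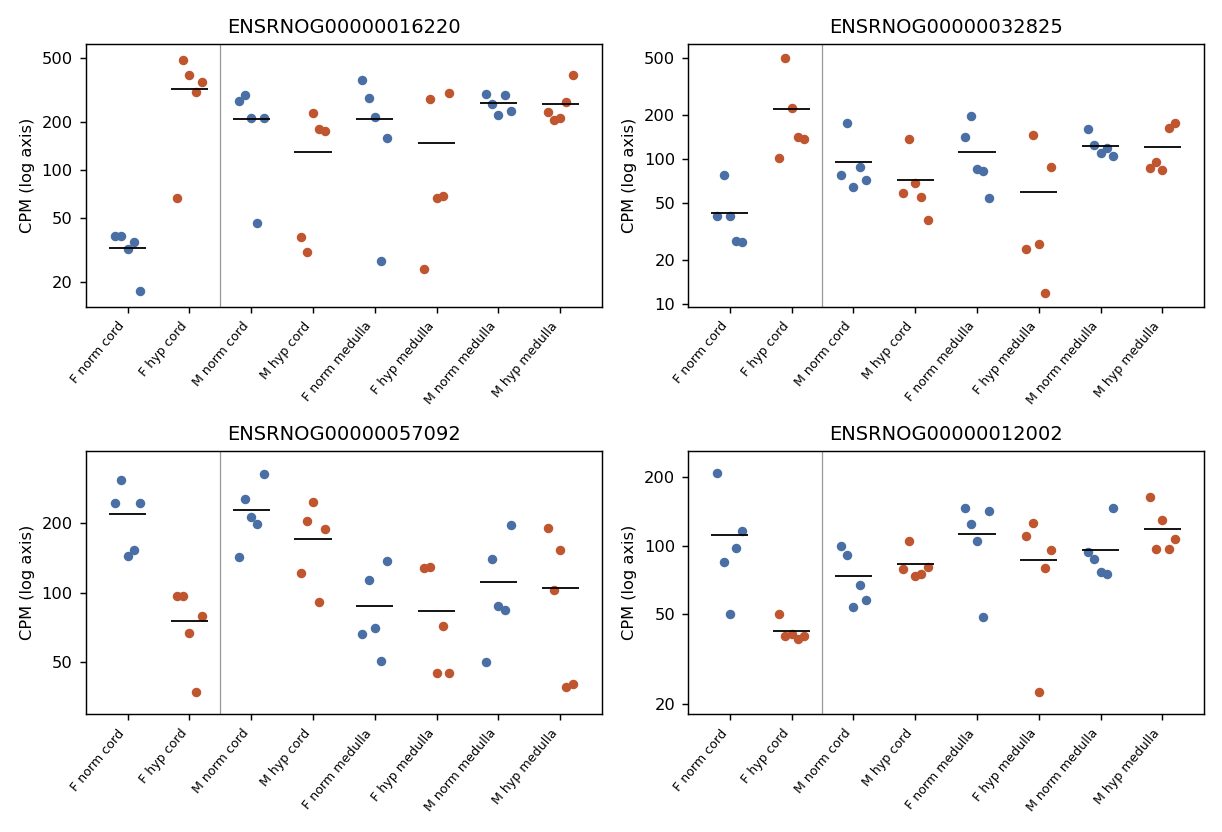
CPM (log axis) of the 4 IDs in all 8 groups of 5 libraries (F female, M male, norm normoxia, hyp hypoxia), with a point per library, in replicate order from left to right, and a line at each group mean. In the 2 groups left of the grey line the hypoxia libraries of the 2 upper IDs lie above, and those of the 2 lower IDs below, all normoxia libraries, while the groups right of it overlap by exposure within sex and region. The rule that chose the IDs required no overlap in the female cord.

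Changes from no reads to reads were rare in the female cord. At equal depth, 6 genes had a read in all 5 hypoxia libraries and in no normoxia library, with at most 3.4 reads on average. Another 2 genes had a read in all 5 normoxia libraries and in no hypoxia library, with at most 6.6 reads on average. A read was found in all 10 libraries for 13012 genes.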

How the data were processed

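The authors deposited raw read counts per Ensembl gene ID, as whole numbers, in a table with 1 column for each of the 40 libraries. TopHat2 2.1, HTSeq and edgeR on genome build rn6 are named in the submitters' processing notes, without their roles. The sources used here do not give annotation release, strand setting or filters, and overlapping, antisense or near-identical genes may share reads. All columns were matched to libraries by label. No rows named no gene. Libraries of a compared group differed beyond sampling noise (chi-square over its degrees of freedom at least 11.1), and 0 were identical.

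Counts were tested with the quasi-likelihood test of edgeR 4.0.16 in R 4.3.3 (TMM factors, genes kept by filterByExpr at a minimum count of 10, Benjamini-Hochberg adjusted p under 0.05) over the 20 cord libraries. The fit drew on male cord libraries for the spread, and the difference between regions was fitted over all 40. CPM use TMM-scaled totals, log2 CPM a prior count of 2, and SEs are those implied by the F statistic. Medulla CPM come from the fit of 40 libraries and are scaled separately from cord CPM. By the series design, an animal gave a medulla and a cord library, which carry its number. Their deviations from group means correlated positively in 10 of 10 female animals, at 0.08 to 0.42 over all genes and 0.23 to 0.74 over the 100 most variable genes. The fit over all 40 had no term for the animal, so its region differences treat these paired libraries as independent.

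By rule, the genes named were the 2 highest and 2 lowest fold changes among called genes without overlap and with a mean log2 CPM of at least 5. The 38 gene lists written for this comparison could not be applied without symbols, and no sequences could be tied to the IDs. The comparison, lists and rules were chosen with earlier results of these data known, and the sets past 2-fold and the genes by rank were chosen after their values were seen. On simulated data with few changed genes, which varied independently, the test called known 2-fold changes in the right direction. The many calls and the block-like rise seen here were not simulated. Alternatives were RLE size factors, no filter, DESeq2 1.42.0, limma 3.58.1 with voom, thinned counts, the 10 genes with the most reads left out, other sets of libraries, blocks, and each library left out.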

Additional observations from a re-analysis of the deposited data

Results flagged for a closer look

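Among 46 sets of 5 libraries checked for 1 library far from the other 4 (Dixon's test, which chance fails in about 1 in 20), 5 held one. ENSRNOG00000032825 was high in female normoxia cord replicate 2 (78.0 CPM) and in male normoxia cord replicate 2 (176 CPM). ENSRNOG00000012002 was high in female hypoxia cord replicate 1 (49.9 CPM), male hypoxia cord replicate 2 (105 CPM) and male normoxia medulla replicate 5 (147 CPM).

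The exposure difference of the cord differed between females and males in 3155 genes and, in females, between cord and medulla in 3078 genes, by the interaction tests of edgeR. Of the 4 IDs, ENSRNOG00000016220 differed by 3.97 on the log2 scale between the sexes and by 3.79 between the regions. ENSRNOG00000032825 differed by 2.80 and 3.28. Both rose in the female cord, and neither passed the test in the male cord or the female medulla, where the fitted log2 fold changes were below 0. ENSRNOG00000057092 differed between the sexes by -1.13 and ENSRNOG00000012002 by -1.57. Both fell in the female cord, and their male log2 fold changes, -0.41 and 0.16, did not pass. The 4 IDs were chosen by their female cord values, which are part of each of these differences.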

How the results depend on the processing

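The count of genes called in the female cord was 3086 to 4834 over 10 alternatives and 3639 to 4583 over the 10 fits without 1 library, with 52% to 61.1% of calls higher. Genes without overlap numbered 2736 to 2951 over 6 alternatives with all 10 female cord libraries, and 3069 to 3793 without 1 library. A smaller group parts from the other more easily, so the second range is higher by construction. Each of the 4 IDs kept its direction and call in the female cord in all 20 alternatives, at edgeR, DESeq2 or limma adjusted p values of at most 0.00724. They were chosen as called genes of these same libraries, so kept calls are no separate evidence. The lowest count, 3086, came with all 40 libraries sharing the spread. That setting also lowered the interaction of sex and exposure to 1562 genes. The interaction of region and exposure was called in 1083 genes with only the 20 female libraries and in 1654 with each animal as a replicate block. Without 1 library the interactions were called in 2569 to 3563 and in 2236 to 4082 genes. For ENSRNOG00000057092, the female minus male difference had an adjusted p of 0.183 with all 40 libraries, 0.0746 with limma voom and 0.0524 without a filter. The cord minus medulla differences of ENSRNOG00000057092 and ENSRNOG00000012002, not called over all 40 libraries, passed in 10 alternatives counted together. Of these, 3 for the first ID and 2 for the second left out 1 library. No direction of a tested value was reversed. Why these counts moved was not tested.

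The labels do not say what a replicate number marks across exposures, and the numbers were not treated as pairing the animals. Same-numbered deviations of the 2 female cord groups correlated at -0.03 to 0.129, over 0.1 in 1 of 5 pairs, and 1 of 5 correlated best with its own number. With the number as a block, 4593 genes were called over the 20 cord libraries and 3596 over the 10 female ones. Precision is limited by 5 animals per group and, for low genes, by totals down to 8818241 reads.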

Other observations

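Replicate 2 had the highest summed level of the 211 risen genes in all 4 cord groups, at 6.66% in female normoxia, 24.8% in female hypoxia, 12.6% for male normoxia and 10.5% for male hypoxia. The next highest library of each group held 6.42%, 15.5%, 11.3% and 7.53%. Within a group the number marks an animal. The labels do not say whether the same number in another group marks a shared litter, a day or nothing, and its part in these levels was not tested.

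These genes were chosen for being lower in the female normoxia than in the female hypoxia cord. Female normoxia libraries held 4.89% to 6.66%, against 6.28% to 12.6% over the 10 male cord libraries, and female hypoxia libraries held 9.37% to 24.8%. ENSRNOG00000016220 held 17.5 to 38.9 CPM in the 5 female normoxia cord libraries, while each of the other groups had a library at 226 CPM or above.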
